A study of Mus musculus with 9 samples.

Results

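T (Brachyury) binding was described as the regions of the 19 autosomes where chromatin immunoprecipitated with a T antibody held at least 4 times the level of input chromatin from the same Prdm14-mVenus reporter line (PV). The rule gave 617 T regions, from 1038 called windows among 2240703 windows kept (0.0463%). These are read from 2 of the 9 libraries of the series, the T library and input PV, each the only library of its group. Both were made from the PV line of strain C57BL/6, labelled as epiblast-like cells, which are cells like the early post-implantation epiblast derived from embryonic stem cells. Per the labels' protocols, activin A and bFGF were used to derive the cells, which were afterwards kept in suspension with leukaemia inhibitory factor, and BMP4 and WNT3A were added to some cultures. The labels do not say which cytokines the T library received or for how long it was cultured. The Blimp1-mVenus (BV) line gave the other inputs, titled BV and BVSC, which here only set the windows and the scaling or serve as alternative backgrounds. The series also holds SMAD1 libraries at 12, 24 and 36 h and a TCF1 library. Sequencing of immunoprecipitated DNA (ChIP-seq) measures no RNA, so the labelled cell type could not be checked against marker genes.

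T is the founding member of the T-box family of transcription factors and is best known for its role in the primitive streak, nascent mesoderm and notochord. T-box proteins contact DNA through a short element read on either strand as TCACACCT or its variants, and T binds a pair of such elements placed head to head in vitro. In mouse embryos T lies downstream of WNT signalling, and its known targets include regulators of presomitic mesoderm. In this series T was measured in cells labelled as epiblast-like, for which the labels do not give the cytokines or the culture time.

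The T library held 20736671 reads and input PV 42532115, counted once each. Counts are in 2 kb windows placed every 1 kb, and each library was scaled so that a typical autosomal window has the value 1. Such a window held 17.2 counts in T and 34.9 in input PV. Enrichment is the scaled T value over the scaled input value, with 0.5 added to both, and a call needed an enrichment and a scaled T value of at least 4. Overlapping or adjoining called windows were merged, and a region is described by its strongest window. Plain ratios are given without the added 0.5 and with an exact (Clopper-Pearson) 95% interval, which covers counting error only, because PCR copies of a molecule may be counted more than once. With 1 library per group there is no replicate check and no p-value. Regions were chosen by their T value, so their enrichment is a description.

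T enrichment was rare and sharp. Over the kept autosomal windows the median enrichment was 0.970 and 99% of windows lay below 1.77. The lowest window had 0.284. The measure could hardly show a 4-fold depletion, because 0.5 is added to both values. Even at the 90th percentile of scaled input, 1.43, a window without T reads would not reach it. The 617 regions cover 1655 kb, 0.0669% of the autosomes, and held 0.512% of the autosomal reads of T (103496 reads) against 0.0728% of those of input PV (30128 reads). Most of the T library therefore lay outside the called regions. When an input was put in the place of T, in windows filtered by the remaining inputs, input BVSC against input PV called 24 windows (0.00107%), in 3 regions. Input BV called 1 window (4.47e-05%). Both inputs are deeper than T, with 38.3 (BVSC) and 112 (BV) counts in a typical window against 17.2. These calls therefore do not show what counting noise would call at the depth of T.

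The strongest region lay on chromosome 18 at 13575001 to 13579001 in mm9, the genome build of all window coordinates here, where 723 T counts stood against 29 input counts. Its enrichment was 31.9 and its plain ratio 50.5 (95% interval 34.9 to 76.0). The next were on chromosome 3 at 3348001 to 3351001, with 708 counts against 33 and an enrichment of 28.8, and on chromosome 1 at 184920001 to 184923001, with 491 against 20 and an enrichment of 27.0. Scaled input at these 3 was 0.830, 0.944 and 0.572, below the median of 1.06 over kept windows, and at the third also below the 10th percentile of 0.658. Over input BVSC the 3 measured 32.4, 29.4 and 34.5. The fourth region, on chromosome 7 at 86932001 to 86936001, the seventh, on chromosome 12, and the eleventh, on chromosome 19, are described with the named loci.

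In the list of strongest regions, the fifth was on chromosome 10 at 110784001 to 110787001 (483 T counts, 35 input counts, enrichment 19). The sixth, on chromosome 2 at 159738001 to 159741001, had 483 counts against 38 (18), and the eighth, on chromosome 1 at 171909001 to 171913001, had 518 against 44 (17.4). Chromosome 13 at 19004001 to 19007001 followed with 535 against 47 (17.1) and chromosome 2 at 120593001 to 120596001 with 408 against 33 (16.7). From the twelfth region on, enrichment was below 16. The regions ranked 12 to 20 ranged from 15.9, on chromosome 3 at 137966001 to 137969001, to 14.3, on chromosome 9 at 101843001 to 101846001. The others of this group lay on chromosome 14 at 51583001 (15.8) and 18460001 (14.3), chromosome 18 at 27784001 (15.7), chromosome 17 at 82551001 (15.5), chromosome 7 at 26359001 (14.8), chromosome 4 at 24819001 (14.7) and chromosome 16 at 11469001 (14.4). The 20 strongest regions were thus spread over 14 chromosomes.

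Strength was graded, with many weak regions and few strong ones. Of the 617 regions, 394 (63.9%) had an enrichment of 4 to under 6, 105 (17%) of 6 to under 8, 107 (17.3%) of 8 to under 16 and 11 (1.78%) of 16 or more. The 118 regions at 8 or more are 19.1% of the regions, and windows at that level are 0.00852% of those kept. The median enrichment was 5.24 and the median plain ratio 7.47. T counts in the strongest window ran from 70 through a median of 128 to 723, and input counts from 10 through 34.0 to 65. From the weakest to the strongest class the median T count was 112, 166, 254 and 518, whereas the median input count was 34.0, 34.0, 34.0 and 38.0. The classes thus differ in the T count and hardly in the input count. They are cuts of the ratio of T to input PV, so a T count that rises with class is a description. The scaled input at the regions had a median of 0.973, below the 1.06 of all kept windows. Calling on that ratio favours windows with low input PV, and its part in this difference was not tested.

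**Figure D1:**
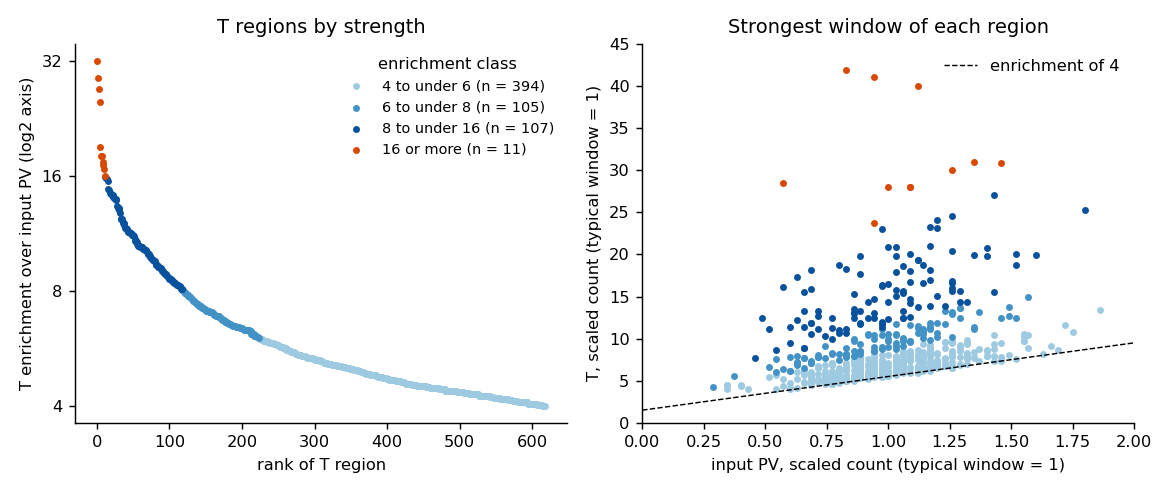
Enrichment of T over input PV for the 617 regions in order of rank on a log2 axis (left), and the scaled T count against the scaled input count of each strongest window (right), with points coloured by enrichment class and the dashed line at an enrichment of 4. The regions form a continuous slope down to the threshold, and the 11 regions at 16 or more stand on input levels between 0.572 and 1.46.

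No gap in strength separated called from uncalled regions. The weakest called regions were on chromosome 18 at 62582001 to 62584001 (95 T counts against 35, enrichment 4.003) and on chromosome 2 at 161663001 to 161665001 (93 against 34, 4.002). Just outside were chromosome 2 at 140518001 to 140521001 (89 against 32, 3.9996) and chromosome 15 at 40754001 to 40757001 (85 against 30, 3.997). The lower end of the exact interval of the plain ratio was at least 2 in all 617 regions and at least 4 in 530. Over other inputs the strongest windows kept a median of 5.27 (input BVSC, lowest 2.67) and 5.13 (input BV, lowest 2.97). Of the 617, 514 were at 4 or more over input BVSC, 505 over input BV and 466 over all inputs, and 609 were at 3 or more over all inputs. These values reuse the T counts that chose the regions, so they are a description and no support for the calls. A call near the threshold depends on which input is used.

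T regions were narrow. The width was 2 kb, the smallest possible, in 227 regions, 3 kb in 359 and 4 kb in 31, and none was wider. Width went with strength, which the fixed threshold and the overlap of windows bring about. In the weakest class 43.7% were 3 kb or wider, against 95.2% of those at 6 to under 8 and 100% of both stronger classes. A signal within 1 kb lies in 2 overlapping windows and gives a width of 3 kb where both pass. Splitting the overlapping windows into 1 kb bins placed a median of 86.6% of the T excess over input within 1 of the 2 bins of the strongest window (quartiles 72.3 and 94.2%). The third strongest region, on chromosome 1 at 184920001, was 3 kb wide with 100% of this excess in 1 bin. The region on chromosome 6 at 52065001 was 2 kb wide with 60.2%. The width of a region therefore does not measure the spread of its signal. In the 11 strongest regions the mean T level, with a typical bin at 1, was 53.9 in the higher bin, 7.36 and 5.08 in the bins beside it, and 2.08 and 1.42 at a distance of 2 kb. In the 394 weakest regions these means were 10.2, then 2.33 and 2.24, then 1.22 and 1.25. Input stayed between 0.916 and 1.26 over the same bins in both classes. The centre bin was chosen for its T value, so its height is a description. At 2 kb the 3 weaker classes stood between 1.22 and 1.33, and the strongest class was still at 2.08 on one side, against 1.23 in input.

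**Figure D2:**
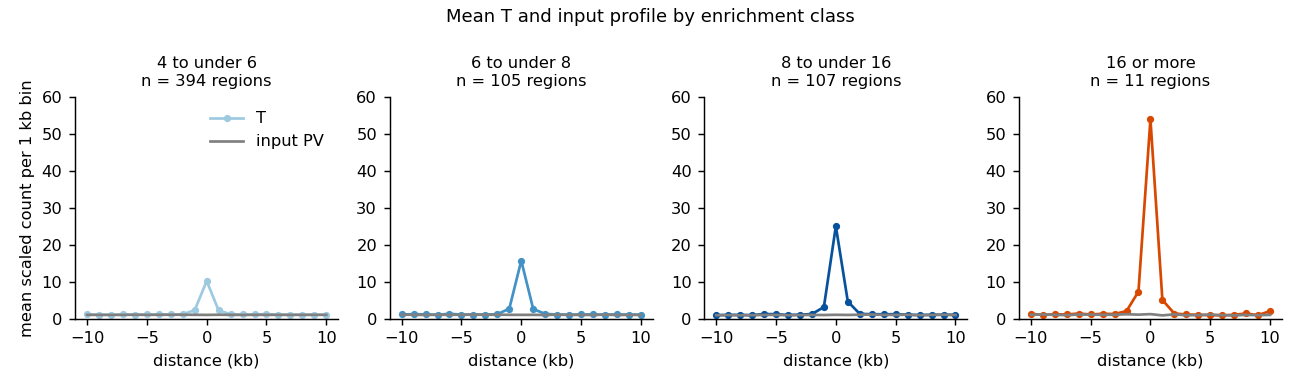
Mean scaled count per 1 kb bin of T (coloured, with points) and input PV (grey) against the distance in kb from the higher T bin of the strongest window, for each enrichment class. The mean T level at the centre is 10.2, 15.7, 25 and 53.9 from the weakest to the strongest class, and at a distance of 2 kb it is between 1.22 and 2.08.

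The share of the excess within 1 bin differed among strong regions. At the seventh region, on chromosome 12 at 11214001 to 11218001, the 2 bins of the strongest window stood at 32 and 24.0, and at the eighth, on chromosome 1 at 171909001, at 36.3 and 23.8. At the third, on chromosome 1 at 184920001, all of the excess was in 1 bin, with 57.0 and 0. Where both bins are high, a signal that straddles a bin border and a pair of close sites cannot be told apart at this resolution.

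T regions occurred on all autosomes. Density was 3.89 regions per 10 Mb of kept sequence on chromosome 9 (45 regions), 3.42 on chromosome 1 (62) and 3.41 on chromosome 19 (19), and it was 1.34 on chromosome 8 (16 regions) and 2.09 on chromosome 15 (20). Chromosome 8 was low, and the remaining 18 autosomes lay between 2.09 and 3.89. Regions at 8 or more did not follow the same order: chromosome 11 had 2 of them among 35 regions, whereas chromosome 13 had 9 among 30.

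**Figure D3:**
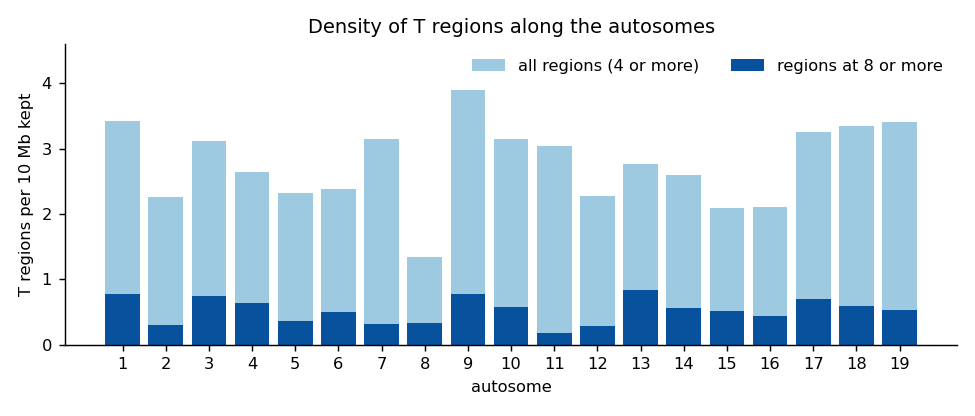
T regions per 10 Mb of kept windows on each autosome, for all regions (light bars) and, drawn over them from 0, for regions at an enrichment of 8 or more (dark bars). Chromosome 9 is highest at 3.89 and chromosome 8 lowest at 1.34 for all regions.

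Most T regions stood alone. The median gap to the nearest other region was 1212 kb, with quartiles of 406 and 2720 kb, and the median gap between neighbours along the chromosome was 2519 kb. Another region lay within 10 kb of 14 regions (2.27%), within 100 kb of 55 (8.91%) and within 500 kb of 193 (31.3%). By comparison, 5.06% of all kept windows lay within 100 kb of the strongest window of a T region, a lower share than the 8.91%. The 2 shares are not measured alike: gaps between regions run from edge to edge, and windows were measured from centre to centre. The share of regions with a neighbour within 100 kb was 8.63% in the weakest class, 7.62% at 6 to under 8, 11.2% at 8 to under 16 and 9.09% (1 of 11) in the strongest, so it did not rise steadily with strength. The widest stretch without a T region, 25.5 Mb, lay on chromosome 6 between 12060001 and 37529001.

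The close regions formed 20 pairs and 5 groups of 3. The tightest group was on chromosome 4 between 24792001 and 24822001, where regions with enrichments of 4.48, 4.95 and 14.7 lay within 30.0 kb, the last 2 of them 3 kb apart. On chromosome 3 between 63924001 and 64012001, a region at 10.8 had neighbours at 5.09 and 5.11. In these groups a strong region stood beside weaker ones. In the groups on chromosome 13 between 110412001 and 110477001, chromosome 2 between 177921001 and 177986001 and chromosome 18 between 24013001 and 24111001, all were weak, with the highest at 5.15, 4.92 and 5.45. Other close pairs were on chromosome 10 at 29574001 and 29585001 (9.34 and 6.00), chromosome 16 at 11469001 and 11490001 (14.4 and 6.91) and chromosome 8 at 22132001 and 22149001 (9.54 and 5.46).

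No annotation of mm9 was used here, so the deposited windows could not be matched to genes by coordinate. A few genes are named beside regions as orientation only. Their approximate mm9 positions, to about 10 kb, were recalled from general knowledge and not read from a file. Many were worked out from a recalled position in the later build GRCm38. They were written down after the strongest regions of these data had been seen, so a gene name beside a region is neither an independent nor a checked assignment. Every locus of the lists of mesoderm, germ cell, T-box, Hox, BMP and WNT genes whose recalled position lies within 50 kb of a region is named. A region said to be at or near a locus, or that a locus had, lies within that distance and is not placed at a promoter. With 10 kb in place of 50 kb, 3 loci had a region. Of the 97 loci whose position was recalled, 9 (9.28%) had a T region within 50 kb by these positions and 88 did not. Of these 88, 1 had no kept window. Other genes of the lists, such as Nanos3, Ddx4, Tbx1 and Smad5, had no recalled position and are not among the 97. Of all kept windows, 2.60% had a T region within 50 kb. These shares are not measured alike. Mesp1 and Mesp2 count separately but share a region, and a Hox cluster spans more windows than a gene. The count of loci was planned only for an mm9 annotation. It is given so that the named loci are not read without those that had no region, and nothing is supported with it. Among the loci without a region, chosen after their values were seen, the highest enrichment within 50 kb was 3.50 at Tbx6, 3.35 at Foxa2, 2.00 at Mixl1 and 1.77 at Eomes, all genes of streak or mesoderm. The counts and enrichments of the regions come from the deposited files and do not depend on the names.

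The strongest named region was placed at Mesp1 and Mesp2, neighbouring genes for bHLH factors of early cardiac and presomitic mesoderm. The region on chromosome 7 at 86932001 to 86936001 held 689 T counts against 39 input counts in its strongest window, an enrichment of 25 and a plain ratio of 35.8 (25.9 to 50.8). SMAD1 of the same line measured 1.53 there. Over the regions of the named loci SMAD1 ran from 0.892 at Rspo3 to 1.90 near the Hoxa cluster, so the value at Mesp1 does not stand out.

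At Msgn1, a bHLH regulator of presomitic mesoderm and a known T target, 2 regions were called. The region on chromosome 12 at 11214001 to 11218001 had 483 T counts against 38 (enrichment 18, plain ratio 25.8, 18.5 to 36.9). The other, at 11183001 to 11186001, had 124 against 33 (5.33, plain ratio 7.62, 5.15 to 11.5). A window just under the threshold, at 3.56 with 103 counts against 46, lay 23 kb from the strongest on the opposite side, between 11238001 and 11241001. T signal thus lay at several positions along this stretch.

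At Fgf8, which encodes a fibroblast growth factor of the streak and tail bud, the region on chromosome 19 at 45796001 to 45799001 had 533 T counts against 51 (enrichment 16, plain ratio 21.2, 15.9 to 28.8). Smaller maxima that were not called followed at 45806001 to 45809001 (121 against 54, 3.68) and at 45819001 to 45822001 (95 against 54, 2.94). These lay 10 and 23 kb from the strongest window.

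The other named loci had weaker regions. Hes7, an oscillating repressor of the segmentation clock, had 158 T counts against 36 on chromosome 11 at 68931001 to 68934001 (enrichment 6.32, plain ratio 8.90, 6.16 to 13.2). TCF1 measured 2.67 at its strongest window. Rspo3, a secreted enhancer of WNT signalling, had 167 against 38 on chromosome 10 at 29273001 to 29276001 (6.42, plain ratio 8.91, 6.23 to 13). The T gene had a region on chromosome 17 at 8588001 to 8591001 with 156 against 45 (5.34, plain ratio 7.03, 5.01 to 10.0). Near the Hoxa cluster a region on chromosome 6 at 52065001 to 52067001 had 171 against 33 (7.21, plain ratio 10.5, 7.20 to 15.7). Dppa3, a maternal and germ cell factor also called Stella, was placed near a region with 109 against 36 on chromosome 6 at 122604001 to 122607001 (4.46, plain ratio 6.14, 4.18 to 9.21). That region was the weakest of those named. Over input BVSC it measured 3.62, below the threshold, and over input BV 4.81.

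**Figure D4:**
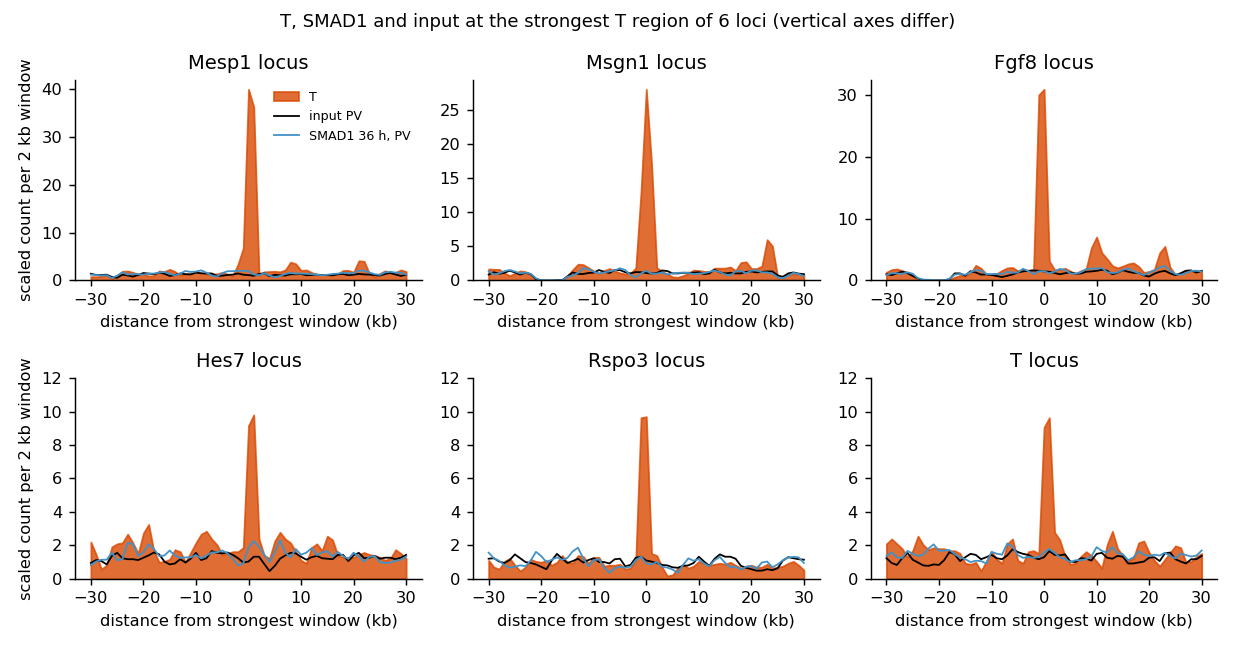
Scaled count per 2 kb window of T (orange area), input PV (black) and SMAD1 at 36 h in the PV line (blue) against the distance in kb from the strongest T window at 6 named loci, placed by recalled gene positions. T reaches 40 at Mesp1, 28 at Msgn1 and 30.9 at Fgf8 and between 9.05 and 9.69 at the strongest window of Hes7, Rspo3 and T, while input there is between 1.03 and 1.46.

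The T-box element was looked for in RefSeq promoters (GRCm38.p6, 250 bases before to 50 after a gene's start) of the genes named beside regions. These windows are of another build, so they cannot be placed within the mm9 regions. Among 32851 promoters 1.28% hold TCACACCT on either strand and 3.03% hold TNACACCT, which includes it. Of T, Msgn1, Mesp1, Mesp2 and Hes7, the genes found in the table, Mesp1 holds TCACACCT just after its start and T holds a TNACACCT match just before its start, which reads AGGTGTAA on the gene's strand. They are shown because they are the matches in these genes, with the element in capitals:
Mesp1 (chr7:79793567-79793596, minus strand): aggggcccgctTCACACCTagggctcagga
T (chr17:8434398-8434427, plus strand): tgcagggacccAGGTGTAAtctttgggctc
A match is a description of the letters and not of a bound site.

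Prdm1, also called Blimp1, and Prdm14, regulators of germ cell fate, had no called region and are named in addition. They lie by the same recalled positions in segments where some of the inputs were raised. The rule keeps few or no windows there. Around the position of Prdm1, all 100 windows were left out because input BV and input BVSC stood at medians of 11.1 and 5.64, whereas input PV stood at 1.17. Measured against input PV alone, T reached 3.17 there, on chromosome 10 at 44188001 to 44190001 (97 counts against 50, plain ratio 3.93, 2.77 to 5.65). Around that of Prdm14, 67 of 100 windows were left out, with input PV at a median of 9.42 and input BV and input BVSC at 1.14 and 1.18. At each locus the raised inputs were those of the line whose reporter is named for that gene. The cause was not tested. T reached 1.92 (320 against 330, plain ratio 1.97, 1.68 to 2.30) within 50 kb of the recalled position of Prdm14. Farther along the same segment of raised input, outside that distance, windows left out by the rule reached 6.38 at 13026001 to 13029001 and 4.12 at 13062001 to 13065001. The latter lies outside by less than the precision of the recalled position.

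Other factors were mostly near background at T regions. SMAD1 at 36 h in PV had a median enrichment of 1.14 over the 617 strongest windows, against 0.983 over all kept windows. It reached 2 or more at 2 T regions (0.324%, against 0.0520% of windows), on chromosome 1 at 60488001 to 60491001 (2.33, with T at 11.4) and chromosome 7 at 55119001 to 55122001 (2.01, T 6.89). TCF1 of the BV line, over input BV, had a median of 1.11 against 0.987 and reached 2 or more at 9 T regions (1.46%, against 0.102% of windows). The highest was on chromosome 4 at 107405001 to 107408001, where TCF1 measured 4.88 and T 12.8 (362 counts against 41). Next were chromosome 7 at 26359001 to 26363001 (TCF1 2.70, T 14.8) and the region named for Hes7. These counts are small, and both shares were above those of all kept windows. Input PV chose the T regions and is also the background of SMAD1, so low input PV raises both values. Input PV was low at both SMAD1 regions (25 and 13 counts, scaled 0.715 and 0.372). Over input BVSC neither reached 2, with 1.72 and 1.76. The part of input PV in these values was not tested. Input BVSC as background was an alternative added after seeing the data. With it, SMAD1 was at 2 or more at 4 of the 617 T regions, against 0.106% of windows. TCF1 was at 2 or more at 16 of the 617, against 0.391% of windows.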

How the data were processed

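ChIP-seq libraries were read as deposited read counts per 2 kb window, stepping by 1 kb, raw and not normalized by the authors as the values show. The submitters' processing notes name Bowtie 0.12.8 and mm9, and the labels' protocols give single-end reads of 50 bp. Whether duplicates were removed is not given in those sources. Each read lies in 2 windows, so depth was summed over every other window. Each library was divided by its mean over 1977886 autosomal windows between the 10th and 90th percentile of mean input. Of 2472353 autosomal windows, 2240703 (90.6%) were kept, 230555 being left out for a mean scaled input under 0.25 and 1095 for an input over 3. Calculations used Python 3.11.15 with numpy 2.4.6, pandas 2.3.3 and scipy 1.17.1. The calling code was also run on simulated counts with planted regions, drawn around the level of input BV with counting noise only. Such counts hold no PCR copies, so that run does not show how many calls in the T library are false. Alternatives varied threshold, input, scaling, pseudocount, filters, merging and distances. Named were the 20 strongest regions, those at the threshold and list genes with a region within 50 kb; other regions and loci were chosen after their values were seen. Gene lists and members were chosen with earlier results of these data known. Gene positions in mm9 were recalled, in many cases from GRCm38 positions shifted by a recalled offset, after the strongest regions had been seen, and not taken from an annotation. The plan made the count of listed genes with a region conditional on an mm9 annotation. It is given with the recalled positions only as the denominator of the named loci, and medians over the lists are left out. Genes nearest to the other strong regions were not looked up.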

Additional observations from a re-analysis of the deposited data

Results flagged for a closer look

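Chromosome X, which the autosomal rule leaves out, held 25 T regions above the level of input by the same thresholds, or 2.04 per 10 Mb against 1.34 to 3.89 on the autosomes. The strongest lay at 19644001 to 19647001 (171 T counts against 19, enrichment 9.98). Scaled input PV at these regions was between 0.200 and 0.773, below a typical autosomal window, and its part in the density was not tested.

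Among autosomal windows left out for high input, 2 T regions passed the same thresholds against input PV, both in a segment of chromosome 1 with raised input in the PV line. They lay at 13026001 to 13029001 (1035 T counts against 314, enrichment 6.38) and at 13062001 to 13065001 (730 against 346, enrichment 4.12).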

How the results depend on the processing

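The number of T regions was 617 and went to 1265 at a threshold of 3, 221 at 6 and 345 with a pseudocount of 1. Under the other 9 alternatives it stayed between 557 and 823, and with input BVSC or input BV as background 526 and 520 of the 617 regions were overlapped by a called region. Regions at 8 or more numbered 118, and 59 with a pseudocount of 1. Regions with another within 100 kb went from 55 to 184 at a threshold of 3, 4 at 6, 16 with a pseudocount of 1 and 91 at 200 kb. Over input BVSC, SMAD1 was at 2 or more at 4 T regions in place of 2 and TCF1 at 16 in place of 9, an alternative chosen after seeing the data. Stricter thresholds, larger pseudocounts and shorter distances give fewer calls by their construction; the cause of the other changes was not tested. Placed loci with a region, by recalled positions, numbered 9, with 16 at a threshold of 3 and 3 at a distance of 10 kb. The search for TCACACCT in the strongest windows was not run, as no genome of mm9 was used here. No paired analysis was possible because each group has 1 library, and for the same reason no replicate could be left out in turn. At 17.2 counts in a typical T window, weaker binding than the threshold is undercounted.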
